A study of Mus musculus with 12 samples.

Results

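Imprinted genes are described here from 10 listed genes, which were the noncoding genes H19, Meg3 and Kcnq1ot1 and the protein-coding genes Igf2, Igf2r, Cdkn1c, Plagl1, Peg3, Mest and Snrpn. They were listed by gene name, with earlier results of these data known, and all exonic and intronic rows of their transcripts were taken. By the GENCODE M1 annotation, 9 of the 10 genes had rows, 7 coding and 2 noncoding, of 34079 annotated genes in the table. They accounted for 70 of 121429 transcripts with an exonic row and 70 of 91702 transcripts with an intronic row. Kcnq1ot1 has no entry under this name in the annotation, so no row was matched to it and no value is given.

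Imprinted genes are expressed mainly from a single parental allele, and DNA methylation set differently in egg and sperm distinguishes the parental alleles. Many lie in clusters that hold both protein-coding genes and a long noncoding RNA, and many act on fetal and placental growth. The abundances below do not separate the parental alleles, so they speak to RNA level and not to imprinting itself.

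RNA was measured in the mouse embryonic stem cell (mESC) line DTCM23/49 XY, grown with serum and LIF on gelatin. A confluent culture was divided into 2 biological replicates, which were passaged apart, and every group received 200 µM 4-thiouridine (4sU), a uridine analog built into RNA during transcription. After 15, 30 or 60 min, RNA was extracted, and newly transcribed (labeled) RNA was pulled down through biotin, giving 6 labeled and 6 total RNA libraries, 2 for each fraction and time. No library came from cells without 4sU, both cultures came from the same line, and p-values therefore measure the spread between these libraries only.

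Values are length-normalized abundances of exons and introns, with nearly the same sum in every library (19988830 to 19992902), and read from these sums 20 units correspond to about 1 TPM, the usual unit of a transcript's share of all transcripts. The scale itself is not given in the sources used here. No value of 1 or less is listed, missing ones were taken as 0, and the depth of each library is unknown. Isoforms that share exons each carry their own estimate, and how shared reads were divided is not given in the sources used here. A sum over transcripts may therefore depend on the number of annotated isoforms. Levels are compared between genes on the most abundant transcript by its mean over the 12 libraries, and tests were run on sums. The most abundant transcript can read low where the signal of a gene is split among many isoforms. The 8 embryonic stem cell markers checked were all present, with summed exonic abundances from 13369 to 18416 in total RNA and from 14629 to 24549 in labeled RNA. Of 8 fibroblast markers, 4 had no value in any library and 1 averaged at least 20, and no marker of primitive endoderm, trophectoderm or mesoderm averaged that much. In labeled RNA introns made up 14.8%, 9.35% and 13.9% of the signal in replicate 1 at 15, 30 and 60 min, and 7.24%, 10.8% and 6.99% in replicate 2. In total RNA the intronic share was 6.53% to 7.41%, so the labeled libraries of replicate 2 at 15 and 60 min had intronic shares like those of total RNA. Intronic and ratio results are given with and without them.

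Among the coding genes the most abundant transcript ranged from 9.10 ± 6.01 (SD, n = 6) for Igf2 to 1169 ± 73.5 for Peg3 in total RNA, against a median of 23.5 over 23502 genes with a value. Peg3 stood at the 95th percentile of these genes, Snrpn at the 91.8th with 611 ± 83.6, and Mest at the 89.0th with 412 ± 109. Igf2r followed with 77.1 ± 7.70. Cdkn1c had 22.1 ± 5.30, Meg3 19.8 ± 3.73 and Plagl1 16.7 ± 3.26, and on this measure these 3 levels did not differ beyond their spread. H19 had 11.8 ± 2.95 and Igf2 was lowest, and their ranges also overlapped. Both noncoding genes thus lay in the lower group on this measure, at the 47.5th percentile for Meg3 and the 40.4th for H19. On sums over transcripts the order differed, with 91.7 ± 22.4 for Plagl1 and 89.8 ± 23.1 for Meg3 against 40.2 ± 10.2 for Cdkn1c in total RNA. There every Cdkn1c library lay below every Plagl1 and Meg3 library.

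**Figure D1:**
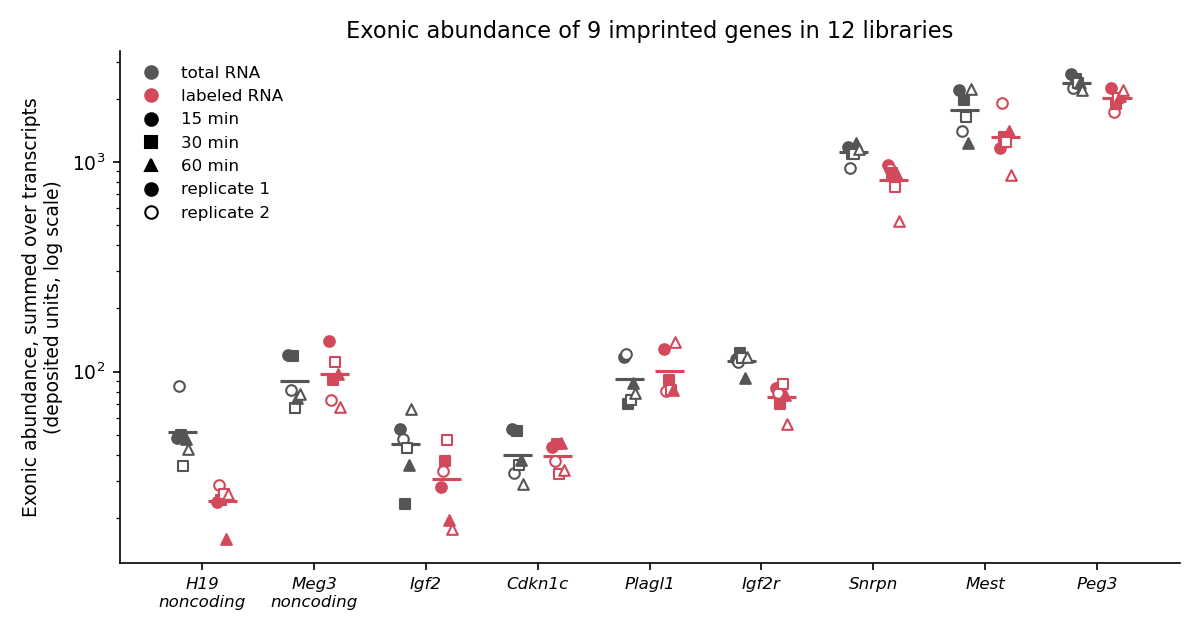
Exonic abundance summed over transcripts (deposited units, log scale) of the 9 imprinted genes in each of the 12 libraries, with bars at the mean of 6 libraries. On these sums H19 and Igf2r have no overlap between labeled and total RNA, while Meg3, Cdkn1c and Plagl1 have labeled values on both sides of their mean in total RNA. The share of all features without overlap was not counted.

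In the comparison of labeled with total RNA, which sets newly made against standing RNA, exonic abundance of H19 and Igf2r was lower in labeled RNA and that of the other 7 genes did not pass the test. These 2 of 9 genes stand against 15.9% of the 25318 genes and unannotated transcripts tested that passed in either direction, 9.49% that were lower in labeled RNA and 6.38% that were higher. The median log2 difference was -0.44 over the 9 imprinted genes and -0.01 over all features. By class, 1 of 2 noncoding genes (median -0.46) and 1 of 7 coding genes (median -0.44) were lower, and none was higher. With 2 noncoding genes, the classes were not tested against each other. Fewer molecules of a gene in labeled RNA and a larger pool of its older molecules in total RNA cannot be told apart from these scaled values, and in bulk RNA neither can fewer cells that express a gene and less RNA per cell.

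H19, a maternally expressed long noncoding RNA of the Igf2 cluster, maps to the minus strand of chromosome 7 at 149761434 to 149764048 (NCBIM37) and is the host of Mir675, which falls in an exon of 2 of its 5 transcripts and in an intron of 1. The mature sequences are shown because the H19 exon that carries them belongs to the RNA that was lower in labeled RNA. They are written 5′ to 3′ from RefSeq (GRCm38.p6, chromosome 7, minus strand, 142577112 to 142577133 for the 5p and 142577078 to 142577099 for the 3p form), with the seed, bases 2 to 8, in capitals.
mmu-miR-675-5p: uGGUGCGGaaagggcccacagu
mmu-miR-675-3p: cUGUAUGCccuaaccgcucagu
The miRNAs themselves were not measured, only the RNA of the host gene.

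In total RNA, summed exonic abundance of H19 was 48.2 and 85.7 at 15 min, 49.6 and 35.4 at 30 min, and 47.9 and 42.7 at 60 min (replicates 1 and 2). In labeled RNA it was 24.0 and 28.9 at 15 min, 24.3 and 25.9 at 30 min, and 15.8 and 26.0 at 60 min. Every labeled library lay below every total library, and the ratio within a time and replicate was between 0.330 and 0.733 in all 6 pairs. The mean was 24.2 ± 4.45 (SD, n = 6) in labeled and 51.6 ± 17.5 in total RNA, and exonic H19 fell by 1.03 on the log2 scale (SE 0.21, limma with Benjamini-Hochberg adjustment, adjusted p = 0.00937). The 85.7 in total RNA of replicate 2 at 15 min stands apart, but the call held with each of the 12 libraries left out in turn (adjusted p up to 0.0267). With a whole replicate left out, 3 against 3 libraries, the difference was -0.89 (adjusted p = 0.519) without replicate 1 and -1.17 (adjusted p = 0.162) without replicate 2. All 5 transcripts were lower on average in labeled RNA, and each was under about 1 TPM, so none entered a test of its own. On the most abundant transcript alone the fractions overlapped, with 7.36 to 16.5 in total and 3.53 to 8.97 in labeled RNA. Of the 5 transcripts, 3 had no intronic value in any library, and summed intronic abundance was 11.4 ± 4.59 in total and 7.56 ± 5.32 in labeled RNA, too low to be tested.

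Meg3, a maternally expressed long noncoding RNA of the cluster that also holds Dlk1, Rtl1 and Dio3, maps to the plus strand of chromosome 12 at 110779211 to 110809936 (NCBIM37) and has 10 transcripts. Its summed exonic abundance had a lowest, median and highest value of 66.8, 79.9 and 120 in total RNA and of 67.8, 94.3 and 140 in labeled RNA. The fractions overlapped over nearly their whole range, and the log2 difference was 0.10 (SE 0.20, 95% interval -0.35 to 0.55, limma adjusted p = 0.764). Intronic abundance was 25.3 ± 5.19 in total and 27.3 ± 14.0 in labeled RNA, where the highest library (53.9, replicate 1 at 15 min) was far from the next (28.1). The log2 difference of Meg3 introns was 0.00 (SE 0.31, adjusted p = 0.994), at the 8.89th percentile of 12621 features, and without the labeled libraries of replicate 2 at 15 and 60 min it was 0.37 (adjusted p = 0.147). The protein-coding genes of this cluster averaged below the filter of 20, with exonic abundance of 12.6 ± 18.8 for Dlk1, 1.18 ± 0.622 for Rtl1 and no value for Dio3 in total RNA.

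Igf2, a paternally expressed fetal growth factor, maps to the minus strand of chromosome 7 at 149836673 to 149852721. Summed exonic abundance of its 8 transcripts was 53.3 and 47.9 at 15 min, 23.3 and 43.3 at 30 min, and 36.0 and 66.0 at 60 min in total RNA. In labeled RNA it was 28.1 and 33.5, 37.5 and 47.3, and 19.7 and 17.7 at the same times. Labeled and total libraries overlapped, and the log2 difference of -0.55 (SE 0.30, 95% interval -1.20 to 0.11) did not pass (limma adjusted p = 0.230). Its introns averaged 3.46 ± 1.35 in total and 1.89 ± 1.06 in labeled RNA, below the filter of 20 for a test, and 7 of 8 transcripts had no intronic value in any library. Over 7124 bp the gene overlaps Igf2as, a noncoding gene on the opposite strand, and whether the libraries keep strand is not given in the sources used here.

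Igf2r, the maternally expressed receptor that takes up IGF2 and leads it to degradation, maps to the minus strand of chromosome 17 at 12875272 to 12962530 (NCBIM37), and its full-length transcript has 48 exons. Its summed exonic abundance was 115, 110, 122, 116, 92.8 and 117 in the total libraries, taken as replicates 1 and 2 at 15, 30 and 60 min. In the labeled libraries in the same order it was 83.7, 79.2, 69.8, 86.9, 77.2 and 56.3. The highest labeled library lay below the lowest total library, and labeled RNA was lower in all 6 pairs, at 0.480 to 0.831 of total RNA. Exonic Igf2r fell by 0.58 on the log2 scale (SE 0.13, limma adjusted p = 0.0137), from 112 ± 10.2 to 75.5 ± 11.1 (SD, n = 6). Paired by time and replicate number the same difference had an adjusted p of 0.0513, and with 3 against 3 libraries it had adjusted p-values of 0.519 without replicate 1 and 0.321 without replicate 2. It passed with each single library left out. Tested by itself, the full-length transcript was lower by a log2 difference of -0.60 (limma adjusted p = 0.00487).

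Intronic abundance of Igf2r ran the other way in most libraries, from a lowest, median and highest value of 11.8, 22.2 and 28.6 in total RNA to 13.6, 39.5 and 67.6 in labeled RNA. Labeled exceeded total RNA in 4 of 6 pairs, and the pairs that did not were those of replicate 2 at 15 min (13.6 against 24.8) and 60 min (21.2 against 23.9). The intronic difference of 0.76 on the log2 scale (SE 0.39) did not pass (limma adjusted p = 0.155). Without the labeled libraries of replicate 2 at 15 and 60 min, whose intronic share was like that of total RNA, it was 1.29 (adjusted p = 0.00124), and without the 15 min library of that replicate alone it was 1.07 (adjusted p = 0.0210). The replicates gave different values, 1.61 (adjusted p = 0.00664) without replicate 2 and -0.10 (adjusted p = 0.914) without replicate 1. Introns as a percentage of exons rose from 18.8 ± 4.44 to 53.4 ± 25.8 (SD, n = 6), a log2 difference of 1.33 (SE 0.37, limma adjusted p = 0.0215), which was 1.79 (adjusted p = 0.000236) without the labeled libraries of replicate 2 at 15 and 60 min. This call was lost narrowly when single libraries were left out, namely labeled replicate 2 at 30 min (1.32, adjusted p = 0.0585) and total replicate 1 at 15, 30 and 60 min (1.32, 1.27 and 1.20, adjusted p = 0.0508, 0.0539 and 0.0511). Without replicate 1 it was 0.54 (adjusted p = 0.636), and with no filter on low values it had an adjusted p of 0.0524.

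Airn, a noncoding RNA read from the opposite strand and known for silencing paternal Igf2r, overlaps Igf2r over 28354 bp, or 32.5% of the full-length transcript and the whole of its 2 short transcripts ENSMUST00000162982 and ENSMUST00000159127. The intronic abundance of the full-length transcript was 6.55 ± 0.565 in total and 12.2 ± 6.17 in labeled RNA. That of the short transcripts inside Airn was 7.36 ± 2.89 and 6.78 ± 3.18 in total RNA and 15.4 ± 9.21 and 13.2 ± 7.29 in labeled RNA. The remaining short transcript, ENSMUST00000161738, lies outside Airn and had an intronic value in 3 libraries only, with 0.658 ± 1.06 in total and 0.218 ± 0.535 in labeled RNA. Airn's own introns had 67.5 ± 4.08 in total and 102 ± 33.5 in labeled RNA, with a log2 difference of 0.52 (SE 0.26, limma adjusted p = 0.134). Since strand is not given, intronic RNA of Igf2r and RNA of Airn in this stretch cannot be told apart.

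Cdkn1c, a maternally expressed inhibitor of cyclin-dependent kinases in the cluster of Kcnq1ot1, maps to the minus strand of chromosome 7 at 150644255 to 150646955. Its exonic abundance had a lowest, median and highest value of 29.0, 36.9 and 53.5 in total RNA and of 32.6, 40.6 and 45.6 in labeled RNA. The labeled range lay within the total range, and the log2 difference was 0.01 (SE 0.20, 95% interval -0.43 to 0.44, limma adjusted p = 0.984). No library had an intronic value for either of its 2 transcripts, and the missing values were taken as 0. Of its cluster, Kcnq1 had no exonic value in total RNA, Phlda2 had 99.4 ± 12.6, Ascl2 63.8 ± 16.1 and Slc22a18 59.1 ± 12.1. None of these 3 passed between labeled and total RNA in exons (log2 differences of -0.42, -0.01 and -0.09, limma adjusted p = 0.0762, 0.985 and 0.858). Of further genes of this domain, given after their values were seen, Tspan32 passed as higher in labeled RNA (1.36, adjusted p = 0.0359), while Tssc4 (0.56, adjusted p = 0.262) and Cd81 (-0.48, adjusted p = 0.0528) did not pass.

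Plagl1, a paternally expressed zinc finger transcription factor, maps to the plus strand of chromosome 10 at 12810497 to 12851500 and has 24 transcripts with rows. Exonic abundance was 91.7 ± 22.4 in total and 100 ± 26.0 in labeled RNA, with a log2 difference of 0.12 (SE 0.18, limma adjusted p = 0.664). Summed over transcripts, its introns varied widely between libraries. They had 40.7 and 50.1 at 15 min, 36.0 and 36.6 at 30 min, and 10.3 and 42.1 at 60 min in total RNA. In labeled RNA they had 93.3 and 2.44, 49.5 and 87.5, and 128 and 12.4 at these times. The labeled libraries of replicate 2 at 15 and 60 min were thus the lowest, and the other 4 labeled libraries lay near or above the top of total RNA. With all libraries the intronic difference was 0.13 (SE 0.75, limma adjusted p = 0.902), without these 2 libraries it was 1.38 (adjusted p = 0.00402). Within replicate 1 alone it was 1.71 (adjusted p = 0.00265) and within replicate 2 alone -1.45 (adjusted p = 0.00369). Fits on a single replicate take their spread largely from other genes, so these p-values do not measure the spread of Plagl1. In replicate 2 labeled RNA was lower at 15 and 60 min and higher at 30 min (87.5 against 36.6). In replicate 1 at 60 min the lowest total value (10.3) stood against the highest labeled value (128). The 2 labeled libraries of replicate 2 that lay below total RNA were the same as those left out above. The share of introns across all genes moved with these 2 libraries as well, and its part in the Plagl1 values was not tested. The intronic sum adds 24 transcripts with low values. The most abundant, ENSMUST00000130638, had 2.31 ± 0.652 in total and 4.42 ± 2.91 in labeled RNA, too low for a test. Its labeled to total ratio was 0.429 in replicate 2 at 15 min and 6.98 in replicate 1 at 60 min. On the sum these ratios were 0.0487 and 12.4. Values of 1 or less were taken as 0, and the part of this floor in the swings was not tested.

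Peg3, a paternally expressed zinc finger protein, maps to the minus strand of chromosome 7 at 6656603 to 6683132. Its summed exonic abundance was 2200 to 2622 in total and 1727 to 2247 in labeled RNA, and the fractions overlapped only between the highest labeled libraries (2247 and 2208) and the lowest total library (2200 in replicate 2 at 60 min). The log2 difference was -0.24 (SE 0.10, limma adjusted p = 0.105), lower in labeled RNA in 5 of 6 pairs. On the most abundant transcript alone, the log2 difference of -0.30 had an adjusted p of 0.0484. Peg3 introns averaged 172 ± 26.5 in total and 279 ± 144 in labeled RNA, where replicate 1 at 15 and 60 min had 480 and 410 and replicate 2 at these times had 133 and 134. Their log2 difference of 0.54 (SE 0.34, adjusted p = 0.233) became 1.02 (adjusted p = 0.0016) without the labeled libraries of replicate 2 at 15 and 60 min. The intron to exon ratio, with a log2 difference of 0.78 (adjusted p = 0.115), passed without either of these libraries as well (0.94, adjusted p = 0.0301, without the 15 min library and 1.01, adjusted p = 0.0312, without the 60 min library), and with both left out it was 1.23 (adjusted p = 0.000898). Of its neighbours, Usp29 had 47.5 ± 9.47 in total RNA and did not pass between the fractions (-0.14, limma adjusted p = 0.664), and Zim1, with 9.51 ± 2.09, was too low to be tested.

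Mest, a paternally expressed gene for a protein of the hydrolase family, maps to the plus strand of chromosome 6 at 30673547 to 30698457 (NCBIM37) and hosts Mir335 in an intron of 9 of its 13 annotated transcripts. The mature miR-335 sequences are shown because this intron is part of the intronic RNA that was higher in labeled RNA. They are from RefSeq (GRCm38.p6, chromosome 6, plus strand, 30741314 to 30741336 for the 5p and 30741354 to 30741375 for the 3p form), 5′ to 3′, with bases 2 to 8 in capitals.
mmu-miR-335-5p: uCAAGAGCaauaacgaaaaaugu
mmu-miR-335-3p: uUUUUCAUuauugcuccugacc
In all, 9 mature miRNAs of 5 miRNA genes lie within 4 of the imprinted genes (Mest, H19, Igf2 and Meg3), and their 9 seeds all differ.

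Intronic abundance of Mest was 68.3 and 42.0 at 15 min, 93.6 and 88.1 at 30 min, and 63.9 and 50.0 at 60 min in total RNA. In labeled RNA it was 151 and 91.8, 123 and 135, and 132 and 60.6. Labeled RNA was higher in all 6 pairs, but the 2 lowest labeled libraries, both of replicate 2, lay within the range of total RNA. Intronic Mest rose by a log2 difference of 0.76 (SE 0.27, limma adjusted p = 0.0463), and it was 1 of 6 imprinted genes with enough intronic signal to be tested. Over all features 28.7% of 12621 passed, 28.4% as higher and 0.317% as lower, and their median log2 difference was 0.60 against 0.33 for the 6 imprinted genes. The call of Mest stood close to the threshold. It was lost when any library was left out except the labeled libraries of replicate 2 at 15 min and 60 min, with log2 differences from 0.62 to 0.81 and adjusted p-values from 0.0644 to 0.128. It was also lost without replicate 1 (0.67, adjusted p = 0.245), without replicate 2 (0.85, adjusted p = 0.0957), with no filter on low values (adjusted p = 0.0587) and on the most abundant transcript (0.86, adjusted p = 0.0540).

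Exonic Mest did not pass (log2 difference -0.44, SE 0.20, limma adjusted p = 0.157), with a lowest, median and highest value of 1224, 1808 and 2218 in total RNA and of 866, 1278 and 1913 in labeled RNA. The replicates differed in direction at 15 min, where labeled RNA was 0.529 of total RNA in replicate 1 and 1.36 of it in replicate 2, and the other way round at 60 min, with 1.15 in replicate 1 and 0.390 in replicate 2. Introns as a percentage of exons rose from 3.95 ± 1.32 in total to 9.06 ± 2.87 in labeled RNA (SD, n = 6). This ratio rose by a log2 difference of 1.19 (SE 0.34, limma adjusted p = 0.0241) and was higher in all 6 pairs. The call was lost on leaving out labeled replicate 2 at 30 min (1.19, adjusted p = 0.0693) or total replicate 1 at 15 or 30 min (1.18 and 1.20, adjusted p = 0.0609 and 0.0576). It was also lost on leaving out total replicate 2 at 15, 30 or 60 min (1.17, 1.24 and 1.04, adjusted p = 0.0601, 0.0509 and 0.0771), without replicate 1 (1.11, adjusted p = 0.195) and without replicate 2 (1.28, adjusted p = 0.0649). Mest overlaps the last part of Copg2 on the opposite strand over 904 bp. Exonic Copg2 was 720 ± 67.3 in total and 571 ± 55.4 in labeled RNA (-0.33, SE 0.10, adjusted p = 0.0521).

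Snrpn, a paternally expressed gene for a protein of the spliceosome's small nuclear ribonucleoproteins, maps to the minus strand of chromosome 7 at 67127388 to 67285105 and has 2 transcripts. Its exonic abundance was 1180, 936, 1089, 1089, 1229 and 1150 in the total libraries, taken as replicates 1 and 2 at 15, 30 and 60 min. In the labeled libraries in the same order it was 971, 926, 888, 754, 866 and 524. Each labeled library was below its total library in 6 of 6 pairs, and the fractions overlapped only through 971 in labeled and 936 in total RNA, both at 15 min. The log2 difference of -0.46 (SE 0.15) narrowly missed the threshold (limma adjusted p = 0.0586). It passed with median-of-ratios scaling (-0.49, adjusted p = 0.0134), without labeled replicate 1 at 60 min (-0.51, adjusted p = 0.0484), without labeled replicate 2 at 60 min (-0.32, adjusted p = 0.0497) and without total replicate 2 at 15 min (-0.54, adjusted p = 0.0413). Without the labeled libraries of replicate 2 at 15 and 60 min it was -0.34 (adjusted p = 0.0420). Snrpn introns had 34.1 ± 10.6 in total and 38.5 ± 22.9 in labeled RNA, a log2 difference of 0.04 (SE 0.38, adjusted p = 0.943), which was 0.48 (adjusted p = 0.164) without those 2 labeled libraries.

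**Figure D2:**
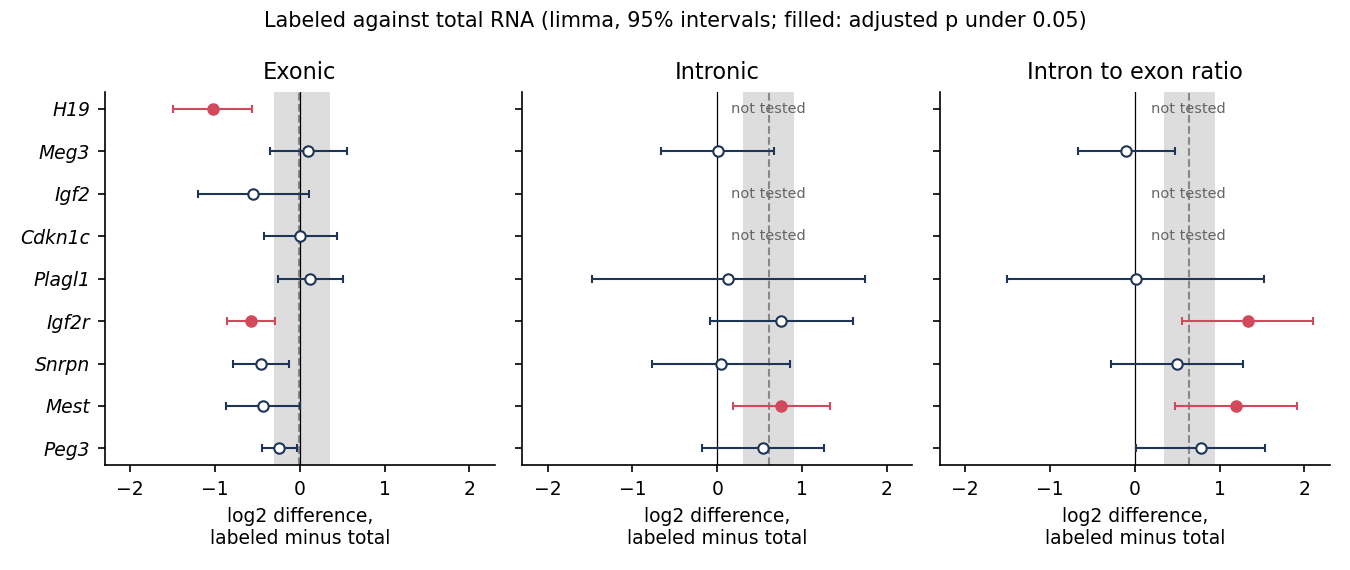
Log2 differences between labeled and total RNA for exons, introns and the intron to exon ratio of each imprinted gene, with 95% intervals from limma over 12 libraries, the median of all features as a dashed line and their middle quartiles shaded. Filled points passed an adjusted p of 0.05, which were H19 and Igf2r in exons (-1.03 and -0.58), Mest in introns (0.76) and Igf2r and Mest in the ratio (1.33 and 1.19). Part of the Igf2r introns overlaps Airn.

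Transcripts of the imprinted genes were also tested one by one. Of 18 transcripts with a mean of at least 20, from 6 genes, 3 were lower in labeled RNA and none was higher, against 17.3% of 45537 transcripts that passed in either direction, 12% that were lower and 5.28% that were higher. They were the full-length Igf2r transcript given above, the Snrpn transcript ENSMUST00000059305 (501 ± 23.5 in total and 350 ± 80.8 in labeled RNA, log2 difference -0.56, limma adjusted p = 0.0313) and the Peg3 transcript ENSMUST00000150182, annotated for nonsense-mediated decay (894 ± 107 and 697 ± 31.4, -0.35, adjusted p = 0.0368). The main coding transcript of Peg3 was at 1169 ± 73.5 and 951 ± 85.4 (-0.30, adjusted p = 0.0513). The Peg3 transcript annotated as a retained intron, ENSMUST00000155910, was the exception among the 4 Peg3 transcripts, with 117 ± 18.6 in total and 179 ± 93.3 in labeled RNA (0.46, adjusted p = 0.332). In Mest, 9 transcripts were tested and all 9 had lower means in labeled RNA without passing. Isoforms of a gene share exons, so these differences are not independent of each other.

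The intron to exon ratio was tested in 6 imprinted genes and rose in 2, Igf2r and Mest, against 21.9% of 10486 features, 21.6% as higher and 0.248% as lower. Of the summed Igf2r introns (21.35 in total RNA), 7.36 and 6.78 came from its short transcripts inside Airn. That part cannot be told from RNA of Airn. The median of the 6 genes was a log2 difference of 0.64, the same as over all features. In total RNA the introns of Snrpn, Mest and Peg3 were at 3.06%, 3.81% and 7.21% of their exons, at percentiles of 5.52, 8.00 and 18.1 among all features. The percentages in this paragraph are ratios of mean abundances, while those given above with an SD are means of the ratios of single libraries. Igf2r was at 19.01%, close to the median of 20.2%, Meg3 at 28.2% and Plagl1 at 39.2%, the last at a percentile of 71.2. In labeled RNA the median over all features was 35.6%, and Snrpn (4.68%), Mest (8.77%) and Peg3 (13.8%) stayed well below it while Igf2r (54.5%) and Plagl1 (62.1%) were above it. Meg3 was at 28.1% in labeled RNA, and its ratio did not differ between the fractions beyond its spread (log2 difference -0.10, SE 0.27, 95% interval -0.68 to 0.48, limma adjusted p = 0.779).

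Without the labeled libraries of replicate 2 at 15 and 60 min, 3 of the 9 imprinted genes were lower in labeled RNA in exons (H19, Igf2r and Snrpn), while 7563 of 25534 features passed. In the remaining libraries 4 of the 6 imprinted genes rose in introns (Mest, Igf2r, Peg3 and Plagl1) and 5 of 6 in the ratio, all but Meg3, while 11098 of 13101 and 8633 of 10896 features passed. The ratio of Snrpn was then 0.82 on the log2 scale (limma adjusted p = 0.0308) that of Plagl1 was 1.25 (adjusted p = 0.0143) and that of Meg3 was 0.05 (adjusted p = 0.840). Mest was at 0.98 in introns (adjusted p = 0.00198) and at 1.43 in the ratio (adjusted p = 0.00109). These libraries were chosen after their intronic shares had been seen, and the number of calls without them was higher over all features as well.

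**Figure D3:**
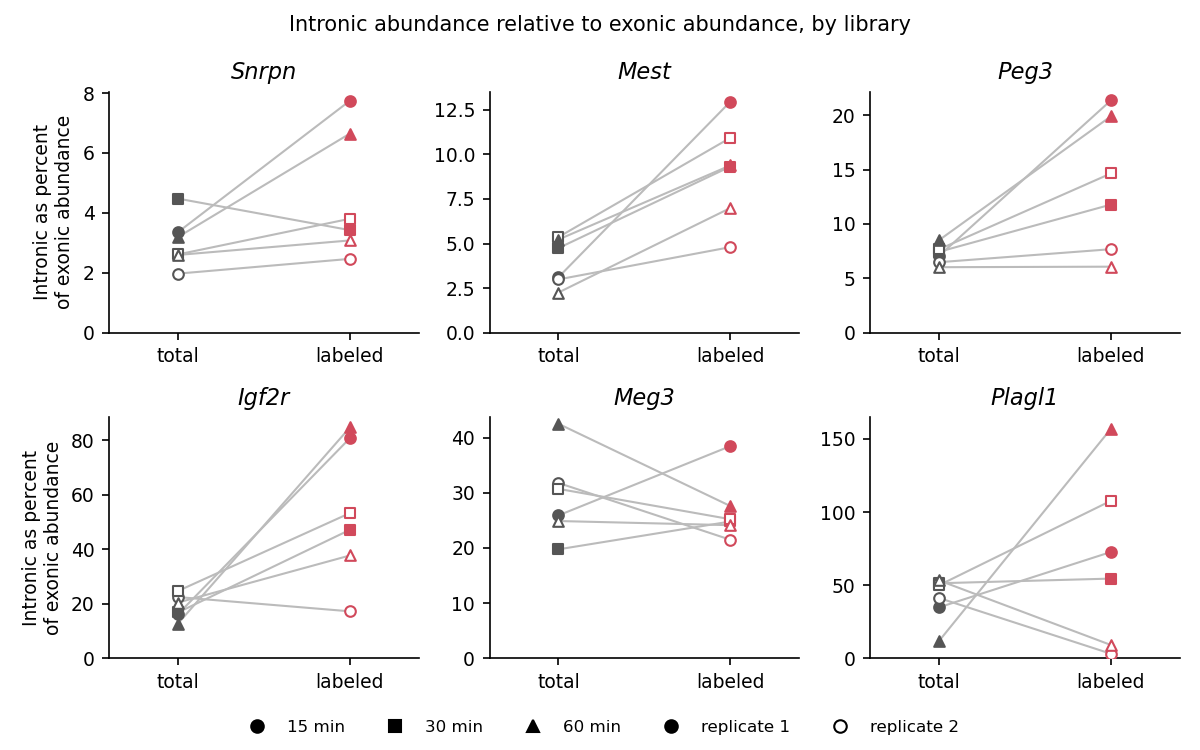
Summed intronic abundance as a percentage of summed exonic abundance in each library for the 6 imprinted genes that could be tested, with lines joining total and labeled RNA of the same labeling time and replicate. All 6 lines rise for Mest, Igf2r rises except in replicate 2 at 15 min, and Plagl1 reaches 157% in labeled replicate 1 and 3.01% in labeled replicate 2. The Plagl1 sums add many transcripts whose intronic values lie near the lowest values listed.

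Labeling for 60 instead of 15 min changed no imprinted gene past the threshold. Of the 9 genes, 0 passed in labeled RNA, in total RNA and in the difference between the fractions, as did 0% of 25318 features in each of these limma tests, of which 252, 176 and 229 had an unadjusted p under 0.05. Each group had 2 libraries. Igf2 had the lowest log2 difference in labeled RNA at -0.69 (SE 0.41, 95% interval -1.62 to 0.24), with 28.1 and 33.5 at 15 min against 19.7 and 17.7 at 60 min. Snrpn followed at -0.49 (SE 0.25), with 971 and 926 at 15 min against 866 and 524 at 60 min. Peg3 had the highest at 0.11 (SE 0.18, 95% interval -0.29 to 0.52). In total RNA the differences ran from -0.51 (SE 0.31) for Plagl1 to 0.18 (SE 0.25) for Snrpn. Mest showed how far the replicates could differ, with a change between 15 and 60 min in labeled RNA of -1.14 without replicate 1 and 0.27 without replicate 2, as values with no test.

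Of 44 other imprinted genes listed from general knowledge, 40 had rows and 24 were abundant enough for the exonic test, of which 5 were higher in labeled RNA, 5 were lower and 14 did not pass, against 6.38% and 9.49% of all features. Their median log2 difference was -0.09. Lower in labeled RNA with H19 and Igf2r were Ube3a, a ubiquitin ligase of the Snrpn domain (-1.18), Grb10, an adaptor that limits growth factor signaling (-0.86), the retrotransposon-derived Peg10 (-0.83), the G protein gene Gnas (-0.74) and the amino acid transporter gene Slc38a4 (-0.51). Higher were Tspan32 (1.36), the splicing factor gene Zrsr1 (1.00), Mkrn3 (0.93), the signal peptide peptidase gene H13 (0.73) and Mcts2 (0.60), with limma adjusted p-values from 0.00154 for Grb10 to 0.0359 for Tspan32 over these 10 genes. Grb10 fell from 656 ± 52.0 to 365 ± 55.2 and Zrsr1 rose from 117 ± 17.5 to 235 ± 37.0 (SD, n = 6), in both with no overlap between libraries. The calls of Tspan32 and Slc38a4 were the least firm. Tspan32 was lost when labeled replicate 1 or 2 at 15 min (adjusted p = 0.0676 and 0.0502), labeled replicate 2 at 30 min (0.0878), labeled replicate 1 at 60 min (0.0598), total replicate 1 at 15, 30 or 60 min (0.0711, 0.0688 and 0.0537) or total replicate 2 at 60 min (0.0823) was left out. Slc38a4 was lost without labeled replicate 1 or 2 at 30 min (adjusted p = 0.0558 and 0.0506), total replicate 1 at 15 min (0.0552) or total replicate 2 at 30 min (0.0571), and in the paired fit (0.0588). Tspan32 was also lost with no filter on low values (0.0536). The other 8 calls held with each single library left out, and all 10 were lost with a whole replicate left out. In introns 6 of 17 of these genes were higher, against 28.4% of all features, and in the ratio 4 of 16, against 21.6%. Slc22a18 is counted in both, and its introns (12.3 ± 2.10 in total and 30.9 ± 15.3 in labeled RNA) met the filter only through labeled RNA.

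**Figure D4:**
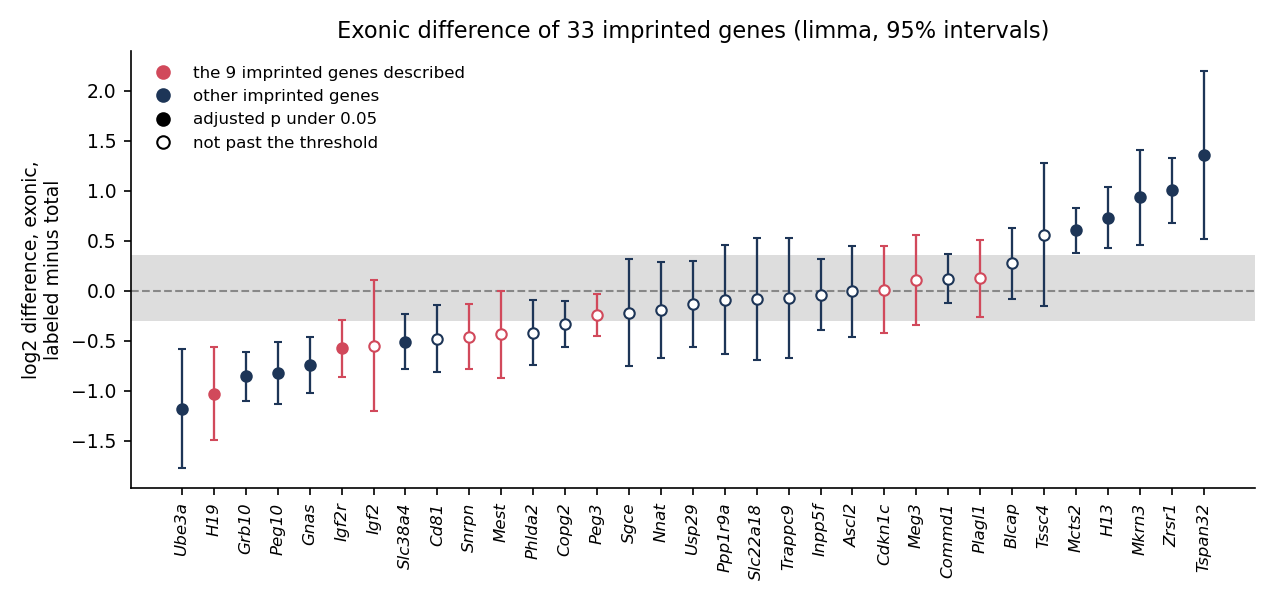
Exonic log2 differences between labeled and total RNA (vertical axis, 95% intervals from limma) of the 9 imprinted genes in red and 24 other imprinted genes in blue, ordered by size, with filled points past an adjusted p of 0.05. The points run from -1.18 for Ube3a to 1.36 for Tspan32, and 7 of the 9 red points did not pass. Tspan32 and Mkrn3 met the filter on abundance only through labeled RNA.

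By likeness of exonic pattern over the 12 libraries (Pearson r of log2 abundance among 25318 features), the genes most like Meg3 were Gm9881 (r = 0.905), D2hgdh (0.860) and Slc35a1 (0.850). Among those most like Peg3 were Prmt3 (0.892) and Me2 (0.861). The libraries share their 2 cultures and their scaling, and these values are a description over 12 points only.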

How the data were processed

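The 12 libraries came from mESCs given 200 µM 4sU for 15, 30 or 60 min, 6 of labeled and 6 of total RNA. Per the labels and the study's methods, the authors used STAR (v2.5.0, on mm10 per the labels) to align reads to exons and introns, and RSEM for quantification. What they deposited is a signal, the abundance of each transcript's exons and introns. A common sum of about 20 times TPM and missing values of 1 or less were read from the values. They are not counts, so no count model was used and no counting error is given. The study's methods give an average number of reads per library, but the depth of each single library is unknown.

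Transcripts were matched by identifier to GENCODE M1 (NCBIM37), which holds 69.1% of the transcripts with exonic rows. The others entered the fits as features of their own. M1 positions and RefSeq positions (GRCm38.p6) were kept apart. Abundances were summed per gene, and log2(sum + 1) was tested with limma 3.58.1 in R 4.3.3 (mean-variance trend, empirical Bayes, two-sided, Benjamini-Hochberg adjustment over all features, 0.05) where the mean over 12 libraries was at least 20. Labeled and total RNA were compared with labeling time as a covariate, and 60 with 15 min in a model with 1 mean per group. For low genes this scale understates fold changes.

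Replicate numbers were read as the 2 cultures that were split before labeling, and same-numbered libraries of a time were taken as pairs. That the libraries of a pair came from the same extract is not given in the sources used here. Deviations of same-numbered libraries correlated at -0.04, 0.07 and -0.24 at 15, 30 and 60 min. The study names no paired model for single genes, and the pairing was fitted as an alternative.

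The imprinted genes, the other lists and the tests were chosen with earlier results of these data known. All listed genes are named. Of the other imprinted genes, those named are up to 5 in each direction past the threshold in the exonic test and neighbours of the listed genes. Likeness is given for the most abundant noncoding and coding gene, and 1 gene of the latter is not reported here. Other steps used Python 3.11.15, numpy 2.4.6, pandas 2.3.3 and matplotlib 3.10.9. The limma procedure was tested on simulated data.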

Additional observations from a re-analysis of the deposited data

Results flagged for a closer look

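Among 34 groups of 6 libraries (exonic or intronic sums of an imprinted gene in a fraction), 4 held a library far from the other 5, where about 1.7 are expected by chance. Intronic Plagl1 in total RNA was 10.3 in replicate 1 at 60 min, against 36.0 in the nearest other library. Exonic H19 in total RNA was 85.7 in replicate 2 at 15 min, against 49.6 in the nearest. Intronic H19 in labeled RNA was 17.9 in replicate 2 at 60 min, against 7.12 in the nearest, and intronic Meg3 in labeled RNA was 53.9 in replicate 1 at 15 min, against 28.1 in the nearest.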

How the results depend on the processing

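Exonic calls between labeled and total RNA numbered 4017 (1615 higher, 2402 lower), 2442 with the replicate block (1205 higher, 1237 lower), 3869 with no filter on low values (2052 higher, 1817 lower, median of all features 0.16), 7888 with transcripts tested one by one and 7563 without the labeled libraries of replicate 2 at 15 and 60 min, and 0 to 5494 with a replicate or library left out (0 in limma without replicate 1, where 2332 had an unadjusted p under 0.05, and 5 without replicate 2). Intronic calls numbered 3625, with 4631 under the block, 6438 with no filter on low values, 11098 without those labeled libraries, and 1272 to 6376 with a replicate or library left out. Ratio calls numbered 2296, with 2973 under the block, 1447 on the most abundant transcript, 8633 without those labeled libraries, and 296 to 5898 with a replicate or library left out. The settings on those labeled libraries and on the most abundant transcript were chosen after seeing the data. Of the time contrasts, that in labeled RNA went from 0 calls to 5 with no filter and 1 with no mean-variance trend, that in total RNA to 7 with a pseudocount of 20, 12 with no filter and 7 with no trend, and the difference between them to 3, 12 and 8. Under the block they had 0 calls. A replicate left out of a time contrast leaves no residual degrees of freedom, so only values were computed.

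The block, which pairs libraries by time and replicate number, ended the exonic calls of Igf2r (adjusted p = 0.0513) and Slc38a4 (0.0588) in limma and changed no other call of a named gene. With numbers crossed at 60 min it gave 4718, 4556 and 2851 calls in exons, introns and ratio. Plagl1 reversed, with -1.45 in introns and -1.57 in the ratio without replicate 1, against 1.71 and 1.58 without replicate 2. In replicate 2 its labeled libraries were lower at 15 and 60 min only. Among all alternative values of named genes, 770 kept their side of the threshold or stayed within their spread, 67 lost a call, 18 gained it, 10 moved in untested values and 2 turned past the threshold. Uncalled values that changed sign are counted among the 770, as for Cdkn1c in exons under 9 of 22 alternatives and Meg3 in introns under 8 of 21.

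The libraries come from 2 cultures of a single line. Median-of-ratios scaling moved the exonic median of all features to -0.04, and the unknown depth of each single library leaves counting error unknown.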
